A study of Mus musculus with 4 samples.

Results

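The 9 genes described here encode the CD3 chains of the T cell receptor (TCR) complex, the CD4 coreceptor, and the kinases and adaptors that carry the first steps of TCR signalling. They are Cd3d, Cd3e, Cd3g, Cd247, Cd4, Lck, Zap70, Lat and Lcp2, taken by gene symbol from a table of 16230 genes, and all 9 were found in it and passed the filter on low values. Transcript levels were measured in 4 libraries of cells labelled as CD4 T cells, which per the labels were sorted from the spleens of Rag-/- mice 8 weeks after naive CD4 T cells had been transferred to induce colitis. The series text describes the sorted cells as CD3+CD4+, so products of Cd4 and of the CD3 genes were part of the gate itself. The donor cells of 2 libraries carried CD4creERafl/fl, that is, loxP-flanked alleles of the estrogen receptor α gene (Esr1) together with a Cre recombinase driven from Cd4. The donor cells of the 2 control libraries carried ERafl/fl, the same flanked alleles without Cre. In this design a Cd4-driven Cre acts in T cells from the thymus onwards, and the Rag-/- host, which lacks T and B cells of its own, keeps its myeloid, natural killer (NK) and erythroid cells. Whether the 2 libraries of a genotype represent different recipient animals is not given in the labels. Errors and p-values therefore cover library-to-library spread alone, which may be technical.

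The TCR α and β chains bind peptide and MHC but have no signalling tails of their own, and they reach the cell surface only when assembled with the CD3γ, δ, ε and ζ chains. CD4 binds MHC class II and brings the kinase Lck to the receptor. Lck phosphorylates the CD3 and ζ tails, Zap70 docks on them, and Zap70 in turn phosphorylates the adaptors LAT and SLP-76 (Lcp2), on which the calcium and Ras branches of the response are built.

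Levels are given in FPKM, the number of fragments corrected for transcript length and library size. Each value is a share of its library. A difference between libraries therefore also depends on what other transcripts the libraries hold. The table holds no counts. The steps between low values put the depth at about 496000 and 551000 fragments in the libraries labelled CD4creERafl/fl and 692000 and 660000 in controls, with 79.6% to 81.4% of the low values of 10331 genes with 1 transcript lying within 0.2 of a whole fragment. The median of that share over all step sizes tried was 34.3% to 37.4%. Esr1 had 0 and 1.96 FPKM in the libraries labelled CD4creERafl/fl and 0.23 and 0 FPKM in controls, too little to check the labels, and the groups are therefore named by their labels. The receptor constant genes Trac, Trbc1 and Trbc2 were not analysed here.

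All 9 genes had lower FPKM in both libraries labelled CD4creERafl/fl than in either control library. The differences were uneven. Lat, Lck, Zap70, Cd3g and Cd3e stood 6.32-fold to 9.79-fold lower by group means, Cd4 2.69-fold and Cd247 2.54-fold lower, and Cd3d and Lcp2 only 1.66-fold and 1.31-fold lower. Values that did not overlap between groups in this direction were also found for 25.7% of the 12896 tested genes (23.2% in the higher direction). The median log2 fold change of the 9 genes was -2.54, against -0.07 over all tested genes. None of the 9 was called at an adjusted p under 0.05 in limma with Benjamini-Hochberg adjustment over all genes. The background of calls was as small, at 0.0155% of tested genes higher and 0.0388% lower, a total of 7 genes, and none with any of the 4 libraries left out. At an unadjusted p under 0.05, 7 of the 9 genes were lower (all but Cd3d and Lcp2), while 6.8% of tested genes were lower and 9.1% higher at that level. In bulk RNA, fewer T cells among the sorted cells and less of these transcripts per T cell cannot be told apart.

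**Figure D1:**
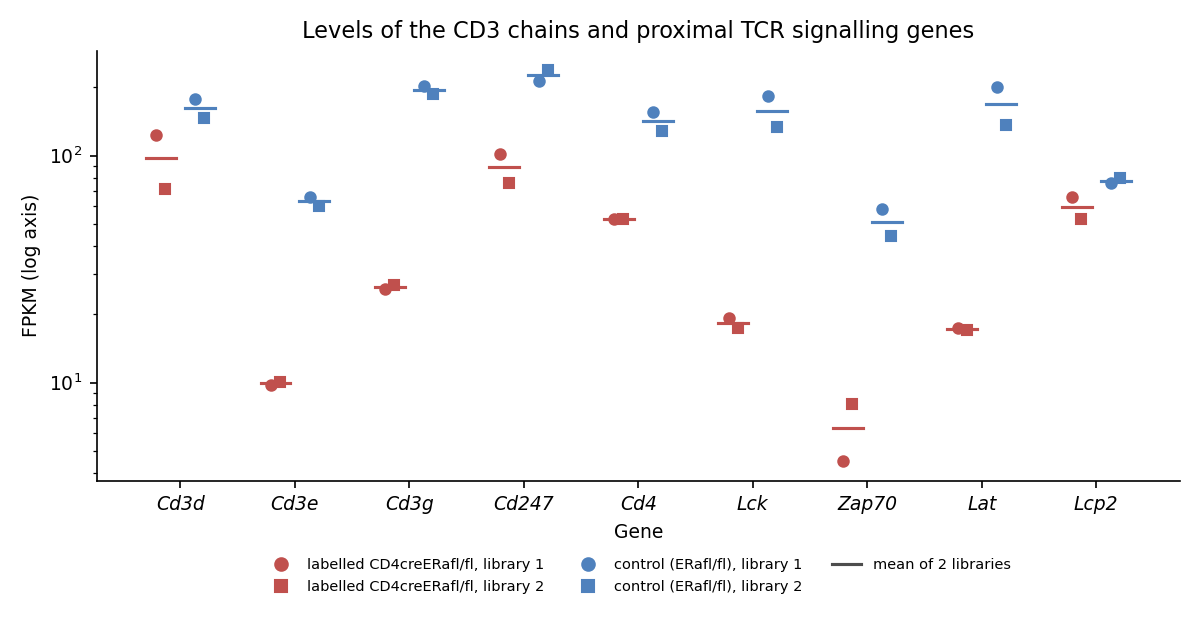
FPKM (log axis) of each of the 9 genes in each library, with libraries labelled CD4creERafl/fl in red and controls in blue, circles for library 1, squares for library 2 and a line at the mean of 2 libraries. Both red points lie below both blue points for all 9 genes, narrowly for Lcp2 and Cd3d and widely for Lat, Lck, Zap70, Cd3g and Cd3e.

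Promoter sequences are shown for genes of both kinds: the neighbours Cd3g, Cd3d and Cd3e, which lie in 1 cluster but differed by unlike amounts, and Lat and Lcp2, which had the largest and the smallest difference. RefSeq (GRCm38.p6) windows of 300 bases, 250 before to 50 after a start site, were found for 8 of the 9 genes (11 windows). Matches to the ETS motif AGGAAG (reverse CTTCCT) and the RUNX motif TGTGGT (reverse ACCACA), both factor families with known roles in T cell genes, are in capitals, and no match of one overlaps a match of the other. The windows lie at chr9:44980382-44980681 (Cd3g, minus strand), chr9:44981536-44981835 (Cd3d, plus strand), chr9:45009562-45009861 (Cd3e, minus strand), chr7:126369519-126369818 (Lat, minus strand) and chr11:34046678-34046977 (Lcp2, plus strand), each written 5′ to 3′ on the strand of its gene.
Cd3g: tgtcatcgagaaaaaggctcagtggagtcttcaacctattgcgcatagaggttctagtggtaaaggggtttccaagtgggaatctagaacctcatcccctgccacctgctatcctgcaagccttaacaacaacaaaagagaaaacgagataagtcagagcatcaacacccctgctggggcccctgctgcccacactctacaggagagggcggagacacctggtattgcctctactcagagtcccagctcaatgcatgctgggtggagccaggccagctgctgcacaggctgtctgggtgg
Cd3d: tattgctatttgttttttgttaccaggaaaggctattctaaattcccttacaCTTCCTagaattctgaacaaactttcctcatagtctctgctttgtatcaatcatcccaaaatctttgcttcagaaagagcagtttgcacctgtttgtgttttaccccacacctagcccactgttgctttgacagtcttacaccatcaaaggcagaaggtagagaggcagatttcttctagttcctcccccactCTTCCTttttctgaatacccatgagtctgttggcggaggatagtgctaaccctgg
Cd3e: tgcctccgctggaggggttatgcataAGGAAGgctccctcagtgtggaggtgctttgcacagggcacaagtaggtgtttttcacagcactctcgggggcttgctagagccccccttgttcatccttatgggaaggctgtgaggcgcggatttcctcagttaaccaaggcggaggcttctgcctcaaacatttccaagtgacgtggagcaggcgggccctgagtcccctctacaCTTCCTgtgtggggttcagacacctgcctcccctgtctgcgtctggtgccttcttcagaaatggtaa
Lat: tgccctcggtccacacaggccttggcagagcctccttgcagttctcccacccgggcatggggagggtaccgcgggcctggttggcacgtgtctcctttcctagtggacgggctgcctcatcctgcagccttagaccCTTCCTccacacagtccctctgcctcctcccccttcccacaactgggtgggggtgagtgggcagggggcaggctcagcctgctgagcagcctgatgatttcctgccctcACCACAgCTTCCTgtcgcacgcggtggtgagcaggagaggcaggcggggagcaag
Lcp2: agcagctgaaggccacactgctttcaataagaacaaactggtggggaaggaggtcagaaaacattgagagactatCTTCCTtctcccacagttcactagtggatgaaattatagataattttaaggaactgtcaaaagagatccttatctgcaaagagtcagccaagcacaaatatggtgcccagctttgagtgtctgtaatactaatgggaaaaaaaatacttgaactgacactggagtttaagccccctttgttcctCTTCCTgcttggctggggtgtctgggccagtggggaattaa

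An ETS match was found in 9 of the 11 windows and in 35.4% of 32851 promoters of the same length, and a RUNX match in 3 of the 11 and in 16.8% of those promoters. Cd3d and Lcp2, with small differences, and Cd3e and Lat, with large ones, each held 2 ETS matches. Cd3g, with a large difference, held neither motif. Among 4 other motifs searched on both strands, the E-box letters CANNTG were in 11 windows and 72.3% of promoters. The letters AGATAA, bound by GATA factors, were in 2 windows and 11.2% of promoters, the CCAAT box was in 1 and 37.4%, and the TATA box, searched as TATAAA, was in 0 and 13.6%. Letter matches describe these windows only and are not evidence of binding.

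Of the CD3 chains, Cd3g and Cd3e were far lower in the libraries labelled CD4creERafl/fl, and Cd3d was little lower. The 3 genes lie together on chromosome 9 of the mouse genome (GRCm38.p6, the assembly with mm10 coordinates) within 40092 bases. Cd3g (NCBI gene 12502; chr9:44969572-44980431, minus strand) and Cd3d (NCBI gene 12500; chr9:44981769-44987052, plus strand) point away from each other across 1337 bases, and Cd3e (NCBI gene 12501; chr9:44998735-45009663, minus strand) lies beyond Cd3d, with 11682 bases between the facing 3′ ends. Cd3g, whose product pairs with CD3ε in the receptor complex, had 25.9 and 26.8 FPKM in the libraries labelled CD4creERafl/fl and 202 and 187 FPKM in controls. Its libraries agreed closely within each group, and the groups were far apart, with a log2 fold change of -2.84 ± 0.27 (SE; limma adjusted p = 0.079). Cd3e, whose product is part of both CD3 dimers, had 9.81 and 10.1 FPKM in the libraries labelled CD4creERafl/fl and 65.5 and 60.2 FPKM in controls. It showed the same tight grouping, with a log2 fold change of -2.54 ± 0.31 (SE; limma adjusted p = 0.082).

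Cd3d, whose product also pairs with CD3ε, had 124 and 70.9 FPKM in the libraries labelled CD4creERafl/fl and 177 and 146 FPKM in controls. The groups did not overlap, but the first library labelled CD4creERafl/fl lay nearer to the second control than to its own replicate. The log2 fold change was -0.78 ± 0.36 (SE; limma adjusted p = 0.365), and it was -1.17 without the first and -0.38 without the second library labelled CD4creERafl/fl. A stretch of 139 of the 1617 bases of the Cd3d transcript, none of it coding, matched transcripts of 763 other genes over at least 50 bases at 90% identity or more. RSEM, which the submitters' processing notes name, divides fragments shared by several transcripts by estimate. Cd3g shared no such stretch, and Cd3e shared 136 bases with 1 other gene and overlapped Gm48719 on the opposite strand over 135 exon bases. The part of shared sequence in the high values of Cd3d was not tested.

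The levels of the low chains rest on few fragments. Cd3e corresponded to 7 and 8 fragments in the libraries labelled CD4creERafl/fl (exact Poisson 95% intervals 2.81 to 14.4 and 3.45 to 15.8) and to 65 and 57 in controls (50.2 to 82.8 and 43.2 to 73.8). Cd3g corresponded to 13 and 15 fragments in the libraries labelled CD4creERafl/fl (6.92 to 22.2 and 8.39 to 24.7) and to 140 and 124 in controls (118 to 165 and 103 to 148). These fragment numbers, and those given for other genes, are not corrected for depth. Depth was lower in the libraries labelled CD4creERafl/fl (about 496000 and 551000 fragments against 692000 and 660000 in controls), which adds to the distance between groups. The intervals of the groups were far apart for both genes. They cover counting error only, since amplified fragments without molecular identifiers are not independent molecules.

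Cd247 encodes the ζ chain, which carries most of the signalling motifs of the receptor (NCBI gene 12503; chr1:165779952-165871153, plus strand). It had 102 and 75.9 FPKM in the libraries labelled CD4creERafl/fl and 213 and 237 FPKM in controls. The groups were separate, and the log2 fold change was -1.35 ± 0.28 (SE; limma adjusted p = 0.15). Exons of Cd247 overlap those of Pou2f1, which encodes the transcription factor Oct-1, on the opposite strand over 2918 of 4558 bases (64.0%). Pou2f1 had 8.08 and 7.53 FPKM in the libraries labelled CD4creERafl/fl and 103 and 44.8 FPKM in controls, and no source used here says whether counting was stranded, so the origin of fragments in the overlapping exons cannot be told apart. The ζ chain also serves activating receptors of NK cells. The 9 NK cell markers summed to 99.2 and 217 FPKM in the libraries labelled CD4creERafl/fl and 83.4 and 113 FPKM in controls, with 6 of 9 higher and 2 lower without overlap. Of the higher ones, Ncr1, Klra8 and Klre1 were listed at 0 in both controls. The 2 lower were Eomes (16.5 and 17.5 FPKM against 27.1 and 33.3 FPKM in controls) and Nkg7 (5.05 and 24.97 FPKM against 49.03 and 47.61 FPKM). Klrd1 overlapped (0 and 23.37 FPKM against 5.10 and 8.91 FPKM). The part of NK cell transcripts in the level of Cd247 was not tested.

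Cd4, the coreceptor gene (NCBI gene 12504; chr6:124864693-124888247, minus strand), had 52.6 and 52.4 FPKM in the libraries labelled CD4creERafl/fl and 155 and 128 FPKM in controls. The libraries labelled CD4creERafl/fl were almost equal and both well below the controls, with a log2 fold change of -1.41 ± 0.27 (SE; limma adjusted p = 0.142). These values rest on 81 and 89 fragments in the libraries labelled CD4creERafl/fl and on 331 and 261 in controls. In mice, Cd4 is also transcribed in some dendritic cells and macrophages. Dendritic cell markers (11 genes) summed to 3528 and 3434 FPKM in the libraries labelled CD4creERafl/fl and 125 and 1027 FPKM in controls, with 8 of 11 higher and 1 lower without overlap. In the libraries labelled CD4creERafl/fl most of the sum came from Cd74 (2406 and 2251 FPKM) and H2-Ab1 (877 and 905 FPKM). Xcr1 was the lower gene (46.67 and 48.48 FPKM against 73.35 and 62.79 FPKM in controls), and Zbtb46 and Siglech overlapped. The part of dendritic cells and macrophages in the level of Cd4 was not tested.

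Both kinases were among the genes with the largest differences. Lck, the Src-family kinase bound to the tail of CD4 (NCBI gene 16818; chr4:129548344-129573641, minus strand), had 19.3 and 17.3 FPKM in the libraries labelled CD4creERafl/fl and 182 and 133 FPKM in controls. The spread between controls was small beside the distance between groups, and the log2 fold change was -3.02 ± 0.31 (SE; limma adjusted p = 0.082). Zap70, the kinase that binds phosphorylated CD3 and ζ tails (NCBI gene 22637; chr1:36761798-36782821, plus strand), had 4.51 and 8.09 FPKM in the libraries labelled CD4creERafl/fl and 58.3 and 44.1 FPKM in controls. It was the lowest of the 9 genes in every library, and its log2 fold change was -2.87 ± 0.41 (SE; limma adjusted p = 0.106). Only 1 of its 4 RefSeq transcripts was paired with a length, 2245 bases. On that transcript the values of the libraries labelled CD4creERafl/fl correspond to about 4.98 and 9.92 fragments.

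The adaptors differed most and least of all 9 genes. Lat, the membrane scaffold phosphorylated by Zap70 (NCBI gene 16797; chr7:126363827-126369705, minus strand), had 17.3 and 16.99 FPKM in the libraries labelled CD4creERafl/fl and 199 and 137 FPKM in controls. It showed the largest difference of the 9, with a log2 fold change of -3.19 ± 0.32 (SE; limma adjusted p = 0.082), on 10 and 11 fragments against 168 and 110 in controls. Lcp2 (SLP-76), the cytosolic adaptor joined to Lat during signalling (NCBI gene 16822; chr11:34046928-34092281, plus strand), had 66.0 and 52.4 FPKM in the libraries labelled CD4creERafl/fl and 75.5 and 79.6 FPKM in controls. Its groups lay close together, with a log2 fold change of -0.39 ± 0.29 (SE; limma adjusted p = 0.547) that was -0.56 without the first and -0.23 without the second library labelled CD4creERafl/fl. Lcp2 is also used by platelets, mast cells and other myeloid cells. The 20 macrophage and monocyte markers summed to 2960 and 3475 FPKM in the libraries labelled CD4creERafl/fl and 105 and 506 FPKM in controls, and all 20 were higher without overlap. Lcp2 also shared 463 of its 3644 transcript bases, none of them coding, with transcripts of 1342 other genes. The part of myeloid transcripts and of shared sequence in the level of Lcp2 was not tested.

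**Figure D2:**
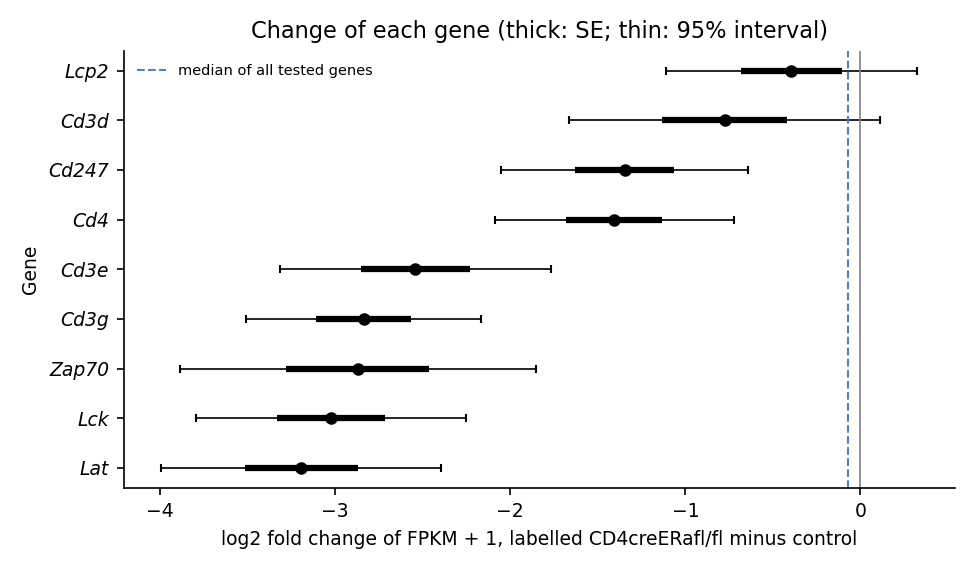
Log2 fold change of FPKM + 1, libraries labelled CD4creERafl/fl minus control (2 libraries each), of the 9 genes, with the SE as a thick bar and the 95% interval as a thin bar from limma; the dashed line is the median of all tested genes. Lat, Lck, Zap70, Cd3g and Cd3e lie between -3.19 and -2.54, Cd4 and Cd247 near -1.4, and the intervals of Cd3d and Lcp2 include 0.

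The uneven differences changed the order of the 9 genes within a library. In the libraries labelled CD4creERafl/fl, Cd3d, Cd247, Lcp2 and Cd4 held the upper 4 places, followed by Cd3g, Lck, Lat, Cd3e and Zap70. In controls, Cd247 and Cd3g were the highest, Lat, Lck and Cd3d came next, and Cd4, Lcp2, Cd3e and Zap70 followed in that order. In the libraries labelled CD4creERafl/fl the neighbours Cd3d and Cd247, Lcp2 and Cd4, and Lck and Lat did not differ beyond the spread between libraries. In controls Lat, Lck, Cd3d and Cd4 overlapped in the same way, and Lat also overlapped Cd3g.

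Ratios between 2 genes of the same library do not depend on how the library was scaled. Relative to the low CD3 chains, Cd4 was higher in the libraries labelled CD4creERafl/fl. There were 5.36 and 5.21 FPKM of Cd4 per FPKM of Cd3e in the libraries labelled CD4creERafl/fl and 2.37 and 2.13 in controls, means of 5.28 ± 0.11 and 2.25 ± 0.17 (SD, n = 2 each). Per FPKM of Cd3g there were 2.03 and 1.96 FPKM of Cd4 in the libraries labelled CD4creERafl/fl and 0.768 and 0.684 in controls. Both ratios were separate between groups, 2.36-fold and 2.75-fold higher in the libraries labelled CD4creERafl/fl. Against Cd3d the direction was the opposite, with 0.426 and 0.739 FPKM of Cd4 per FPKM of Cd3d in the libraries labelled CD4creERafl/fl and 0.873 and 0.876 in controls.

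These ratios were tested by subtracting the log2(FPKM + 1) of a CD3 chain from every gene and repeating the limma fit. Cd4 rose relative to Cd3e by 1.14 ± 0.27 (SE; 95% interval 0.47 to 1.81; limma adjusted p = 0.00934) and relative to Cd3g by 1.43 ± 0.27 (SE; limma adjusted p = 0.00355). The adjusted p over leaving out each library stayed between 0.0203 and 0.0436 for Cd3e and between 0.0101 and 0.0203 for Cd3g. Relative to Cd3d, Cd4 was not called (-0.63, 95% interval -1.87 to 0.61; limma adjusted p = 0.614). These calls do not set Cd4 apart from other genes: 85.8% of tested genes rose relative to Cd3e (0.147% fell) and 89.9% relative to Cd3g (0.124% fell), whereas 4.5% rose and 0.264% fell relative to Cd3d. With Cd4 itself subtracted, a fit chosen after the data were seen, Cd3e and Cd3g fell relative to Cd4 (limma adjusted p = 0.0435 and 0.0217), as did Lck (-1.62, 0.0199), Zap70 (-1.46, 0.0383) and Lat (-1.79, 0.0177), while 38.4% of tested genes rose and 0.349% fell. Cd247 did not differ detectably from Cd4 (0.06, 95% interval -0.72 to 0.84). From counting error alone, the log2 difference in Cd4 per Cd3e had a 95% interval of 0.41 to 2.04.

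Ratios among Cd3e, Cd3g, Lck, Zap70 and Lat are given as a description, since these 5 were grouped for their similar, large fold changes, which limits how far their ratios can differ. Cd3g had 2.64 and 2.66 FPKM per FPKM of Cd3e in the libraries labelled CD4creERafl/fl and 3.08 and 3.11 in controls, a log2 difference of -0.22. In the fit on log2(FPKM + 1), where the added 1 weighs more on low genes, the difference was -0.29 and was not called (95% interval -0.97 to 0.38; limma adjusted p = 0.34). Lck had 1.96 and 1.72 FPKM per FPKM of Cd3e in the libraries labelled CD4creERafl/fl and 2.78 and 2.22 in controls (95% interval of the difference in that fit -1.23 to 0.27; limma adjusted p = 0.178). Zap70 had 0.460 and 0.803 FPKM per FPKM of Cd3e in the libraries labelled CD4creERafl/fl and 0.890 and 0.733 in controls, with overlap. Lat had 1.77 and 1.69 FPKM per FPKM of Cd3e in the libraries labelled CD4creERafl/fl and 3.05 and 2.27 in controls, and it too was not called (limma adjusted p = 0.0918), except with a pseudocount of 5 (0.0441). Per FPKM of Cd3e, Cd3g, Lck and Lat were lower in both libraries labelled CD4creERafl/fl than in either control. Over the 10 pairs that the 5 genes form, the largest difference in a group ratio was 1.52-fold, for Lat per Cd3e, a size bounded by the choice of the 5. These values do not show that the 5 genes changed equally.

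**Figure D3:**
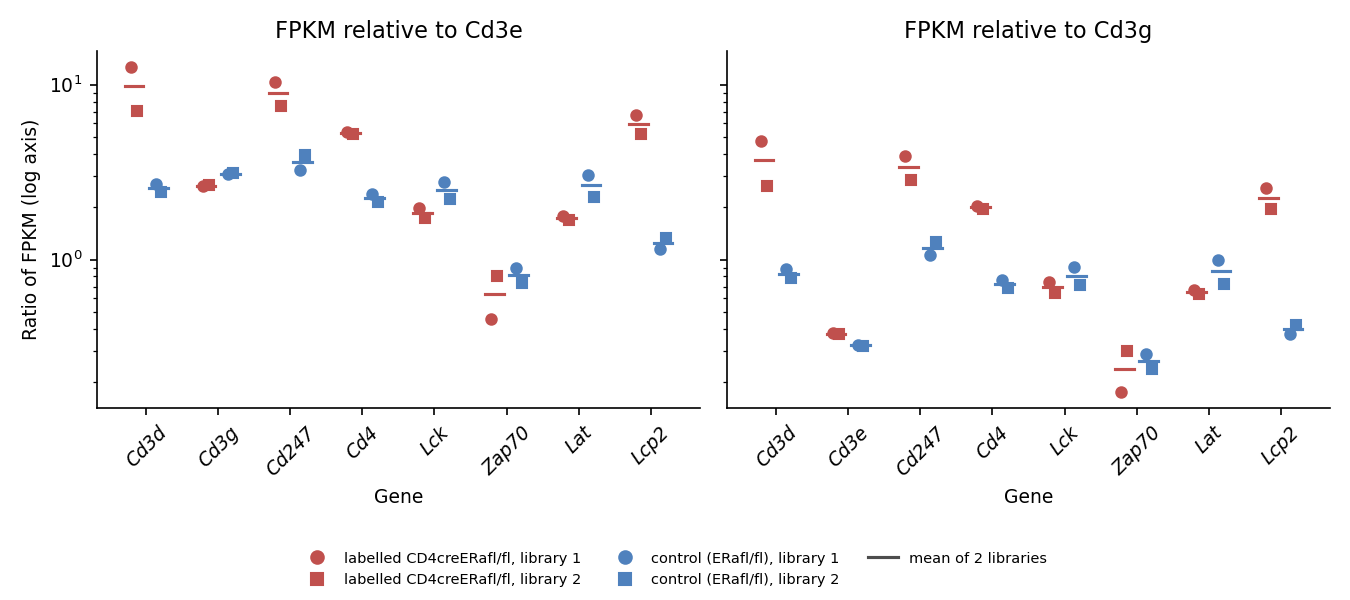
FPKM of each gene divided by that of Cd3e (left) and of Cd3g (right) in the same library, on a log axis, with libraries labelled CD4creERafl/fl in red, controls in blue and a line at the mean of 2 libraries. Cd3d, Cd247, Cd4 and Lcp2 are higher relative to both chains in the libraries labelled CD4creERafl/fl, while Lck, Zap70 and Lat differ less between the groups.

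Set against Cd3e, the remaining genes stood higher. Cd3d had 12.6 and 7.04 FPKM per FPKM of Cd3e in the libraries labelled CD4creERafl/fl and 2.71 and 2.43 in controls. Cd247 had 10.35 and 7.53 in the libraries labelled CD4creERafl/fl and 3.25 and 3.94 in controls, and Lcp2 had 6.72 and 5.20 in the libraries labelled CD4creERafl/fl and 1.15 and 1.32 in controls. All 3 rose relative to Cd3e, with log2 differences of 1.77 for Cd3d (limma adjusted p = 0.00507), 1.197 for Cd247 (0.0105, but 0.0593 without control 1) and 2.15 for Lcp2 (0.00205). With 85.8% of all tested genes rising in this fit, these calls are near the background and are not a result about the 3 genes. The same difference between Cd3d and Cd3e was not called when Cd3d was the gene subtracted (limma adjusted p = 0.134), a fit in which the spread of Cd3d between the libraries labelled CD4creERafl/fl enters every gene. Relative to Cd3d, Lat, Lck and Cd3g fell (limma adjusted p = 0.0212, 0.0324 and 0.0498), and none of these calls held with any library left out. With Cd3g subtracted instead, Cd3d rose by 2.06 (limma adjusted p = 0.0026), in a fit where 89.9% of tested genes rose. For the adaptor pair, Lat had 0.263 and 0.324 FPKM per FPKM of Lcp2 in the libraries labelled CD4creERafl/fl and 2.64 and 1.72 in controls, and for the coreceptor and its kinase, Lck had 0.366 and 0.331 FPKM per FPKM of Cd4 in the libraries labelled CD4creERafl/fl and 1.18 and 1.04 in controls.

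The other genes of the proximal pathway were lower in most cases, by less. Of 26 listed, 23 were tested, 15 were lower and 1 higher without overlap between groups, and none was called in limma (10 had an unadjusted p under 0.05). Their median log2 fold change was -1.09, or -0.63 without the first and -1.38 without the second library labelled CD4creERafl/fl. Among the lowest were Trat1, a TCR-associated transmembrane adaptor (-3.01), Sit1, a transmembrane adaptor that binds Shp2 (-2.45), and Skap1, an adaptor linked to integrin activation (-2.42). Trat1 had 6.06 and 8.17 FPKM in the libraries labelled CD4creERafl/fl and 111 and 36.5 FPKM in controls. Highest were Pag1, the adaptor that anchors the Lck inhibitor Csk (0.82), Was, the actin regulator WASP (0.28), Fyb, an adaptor bound by Lcp2 (0.02), and Vav1, a guanine nucleotide exchange factor (0.01). Was, the 1 gene that was higher without overlap, had 115 and 125 FPKM in the libraries labelled CD4creERafl/fl and 108 and 89.7 FPKM in controls. Was, Pag1, Grap2 and Sh2d2a share sequence with more than 700 other genes, as Cd3d and Lcp2 do, and their log2 fold changes ranged from -1.97 (Grap2) to 0.82 (Pag1), with a median of -0.19, against -1.10 for the other 19. Among the other T-restricted genes, Ubash3a, which shares sequence with 1789 other genes, had -2.53, against a median of -2.54 for the other 11 (the limit of 700 was set after the counts of shared genes were seen). Fyn, the other Src-family kinase of T cells, had 19.1 and 25.3 FPKM in the libraries labelled CD4creERafl/fl and 70.5 and 61.7 FPKM in controls, a smaller difference than that of Lck, so that Lck per Fyn was 1.01 and 0.687 in the libraries labelled CD4creERafl/fl and 2.58 and 2.16 in controls.

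Genes that take the same steps in other leukocytes were higher throughout. All 10 listed, among them Fcer1g, Tyrobp, Syk, Lyn, Fgr, Lat2, Blnk, Btk and Plcg2, were higher without overlap, none was called in limma, and 9 had an unadjusted p under 0.05. Their median log2 fold change was 2.87, or 1.80 without control 1 and 4.07 without control 2, so the size rests on control 1, which held little of these transcripts. Among the largest were the differences of Fcer1g, the Fc receptor γ chain that is the relative of ζ (4.02), Tyrobp, the adaptor DAP12 (3.43), and Syk, the relative of Zap70 (3.10), and smallest those of Lat2, the relative of Lat (0.67), Plcg2, the phospholipase of B and myeloid cells (2.54), Blnk, the relative of Lcp2 (2.59), and Fgr, a myeloid Src-family kinase (2.81). Syk had 29.2 and 35.9 FPKM in the libraries labelled CD4creERafl/fl and 0.83 and 7.24 FPKM in controls. Zap70 per Syk was 0.155 and 0.226 in the libraries labelled CD4creERafl/fl and 70.2 and 6.10 in controls. Cd247 per Fcer1g was 0.413 and 0.403 in the libraries labelled CD4creERafl/fl and 97.7 and 4.32 in controls. Lat per Lat2 was 0.673 and 0.571 in the libraries labelled CD4creERafl/fl and 17.4 and 5.47 in controls. In each of these 3 pairs the T cell gene was the higher in both controls and the lower in both libraries labelled CD4creERafl/fl. Cd3e per Fcer1g did the same, narrowly in control 2 (30.0 and 1.10 in controls). Cd3e per Tyrobp did not, at 5.10 and 0.799 in controls, with Cd3e the lower gene in control 2.

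**Figure D4:**
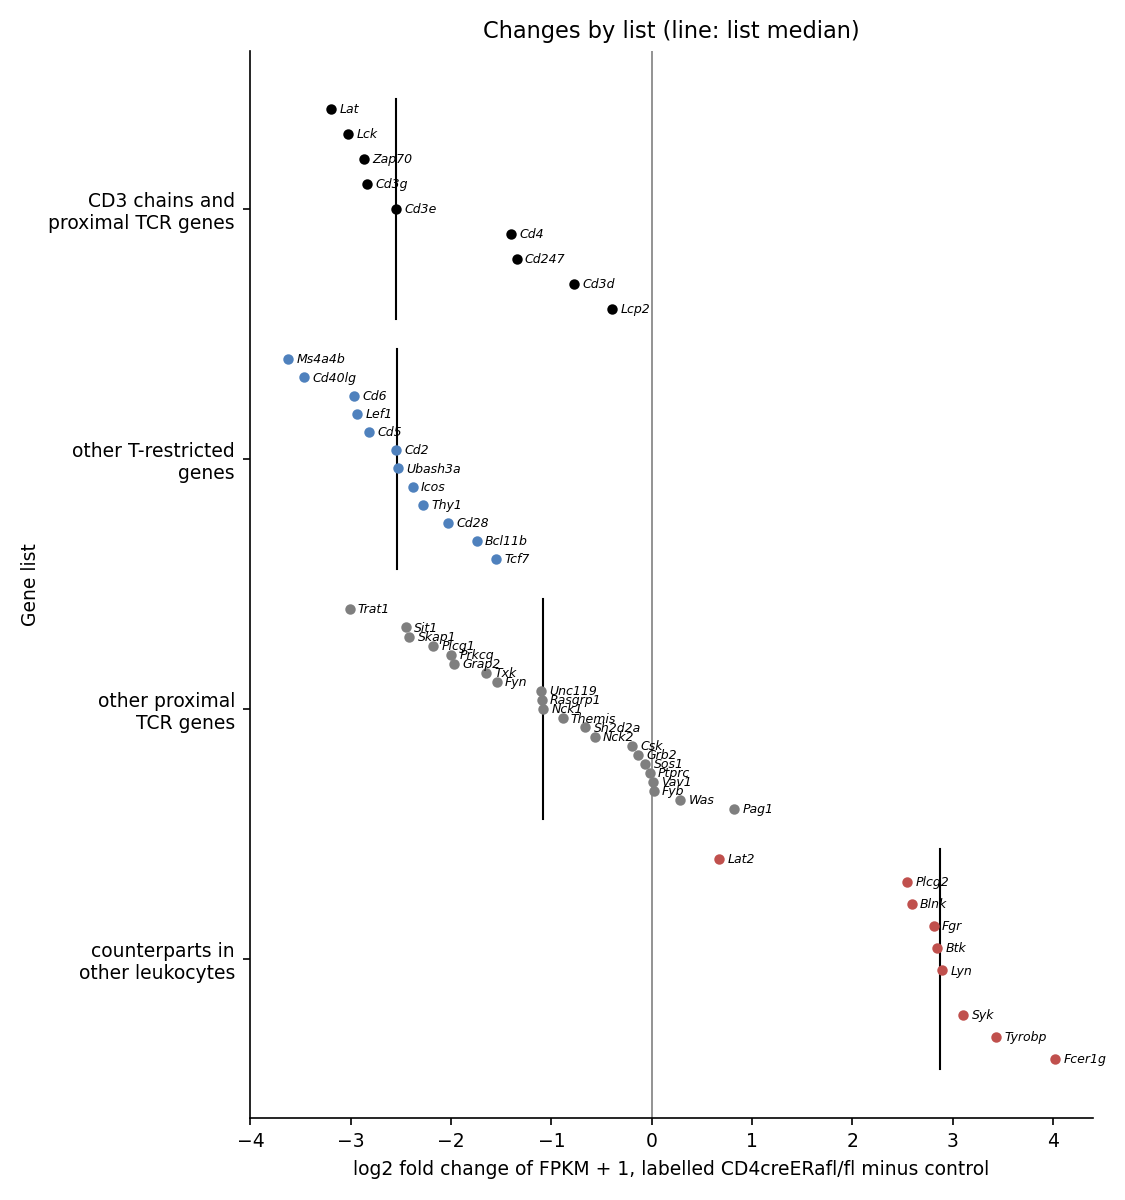
Log2 fold change of FPKM + 1, libraries labelled CD4creERafl/fl minus control (2 libraries each), of the tested genes of 4 lists, with a line at each list's median, which also counts 2 genes not shown. The 9 genes and the other T-restricted genes share a median of -2.54, the other proximal TCR genes have -1.09 and the counterparts in other leukocytes 2.87.

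Other genes listed as T-restricted had a median difference close to that of the 9. Their log2 fold changes ranged from -3.625 to -1.553, and those of the 9 from -3.193 to -0.394. All 12 other T-restricted genes (Bcl11b, Cd2, Cd28, Cd40lg, Cd5, Cd6, Icos, Lef1, Ms4a4b, Tcf7, Thy1 and Ubash3a) were lower without overlap, with a median log2 fold change of -2.54, and summed to 128 and 144 FPKM in the libraries labelled CD4creERafl/fl and 991 and 852 FPKM in controls. The 9 genes summed to 420 and 331 FPKM in the libraries labelled CD4creERafl/fl and 1327 and 1153 FPKM in controls. T cell transcripts, which define the sorted cell type, were thus present in all 4 libraries. Neutrophil markers summed to 4985 and 6709 FPKM in the libraries labelled CD4creERafl/fl and 1657 and 3740 FPKM in controls, mostly from S100a8 and S100a9. Of these 8 genes 5 were higher without overlap, and Mpo, Retnlg and Camp overlapped. Erythroid markers summed to 6498 and 5100 FPKM in the libraries labelled CD4creERafl/fl and 215 and 8184 FPKM in controls, with 1 of 9 higher and 0 lower without overlap. Control 1 was the lowest library for each of these lists and for the macrophage, dendritic and NK cell lists. B cell and platelet or mast cell markers summed to at most 21.8 FPKM in every library. The CD8 genes Cd8a and Cd8b1 summed to 156 and 63.4 FPKM in the libraries labelled CD4creERafl/fl and 78.8 and 43.7 FPKM in controls. The part of these other transcripts in the lower levels of the 9 genes was not tested.

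**Figure D5:**
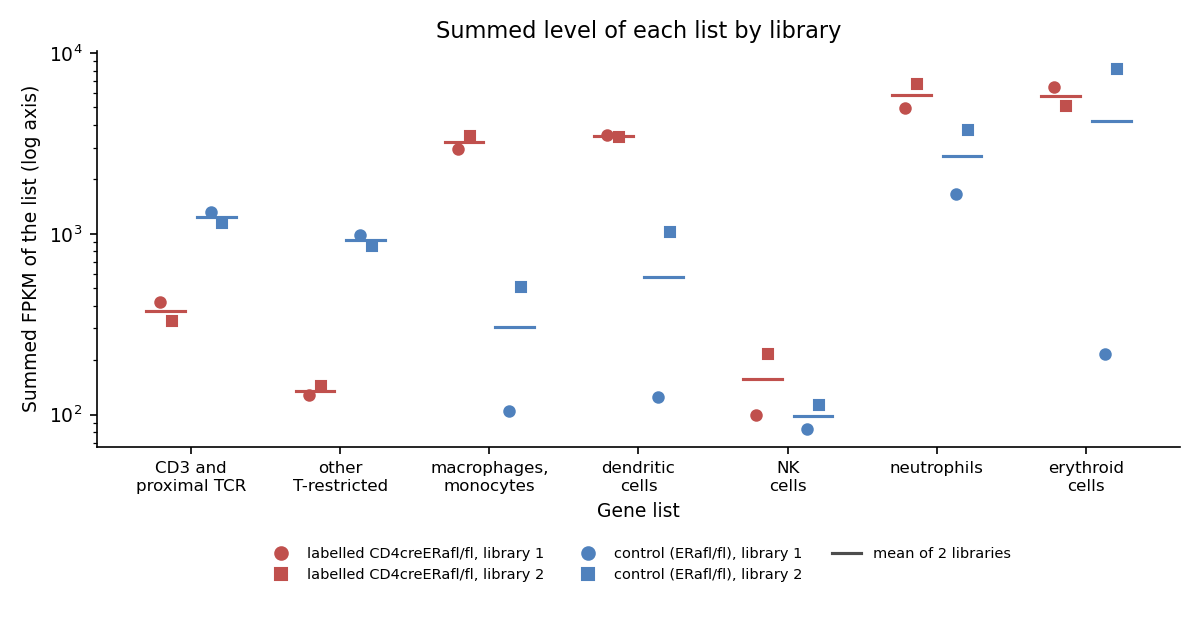
Summed FPKM (log axis) of each marker list in each library, with libraries labelled CD4creERafl/fl in red, controls in blue and a line at the mean of 2 libraries. The 2 T cell lists are lower and the macrophage and dendritic cell lists higher in the libraries labelled CD4creERafl/fl, and the erythroid list is lowest in control 1 at 215 FPKM and highest in control 2 at 8184 FPKM.

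When each library was scaled to the mean level of the 12 other T-restricted genes, the picture turned. On that scale Lat (-0.62), Lck (-0.45), Zap70 (-0.30), Cd3g (-0.27) and Cd3e (0.03) were not called, and Cd3d (1.80), Cd247 (1.23), Cd4 (1.17) and Lcp2 (2.18) rose, as did 86.4% of tested genes (0.132% fell), and the median of all tested genes moved from -0.07 to 2.50. With voom weights on recovered fragments, which can be used for the 6 of the 9 genes with 1 transcript, Lat, Cd3g, Cd3e and Cd4 fell (limma adjusted p = 0.0056, 0.0056, 0.0197 and 0.0232) and Cd3d and Lcp2 were not called. In that fit 0.812% of 6282 tested genes fell and 2.32% rose. Of the other proximal genes, of which 9 were tested in it, Prkcq, Plcg1 and Trat1 fell.

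The genes whose profile over the 4 libraries was closest to the mean profile of the 9 were sought among 3238 genes with a mean of at least 20 FPKM. By root mean squared difference of centred log2(FPKM + 1), the 6 closest were Apol7e (0.119), Thy1 (0.122), Lgals1 (0.14), Espn (0.153), Prkcq (0.161) and Tbc1d10c (0.162). Thy1, a surface glycoprotein of T cells, had 29.7 and 26.7 FPKM in the libraries labelled CD4creERafl/fl and 146 and 134 FPKM in controls. Prkcq, the protein kinase C of the T cell synapse, had 9.58 and 6.45 FPKM in the libraries labelled CD4creERafl/fl and 40.0 and 29.8 FPKM in controls. The 9 genes themselves ranged from 0.257 for Cd3e to 0.835 for Lcp2. The 6 genes were picked as the closest of 3238, so their smaller distances are no result about the 9. The profiles compared have 4 points in 2 groups, so the size of the group difference weighs heavily in this measure.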

How the data were processed

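RNA from sorted cells was sequenced on Illumina libraries, per the labels' protocols. The authors deposited FPKM values for 16230 genes in 4 libraries. The submitters' processing notes name HISAT, Bowtie2, RSEM and mm10, while roles, settings, annotation and strand use are not given in the sources used here. The 9 genes were matched by symbol, and 23 symbols turned into dates were restored by gene identifier. Genes with a mean of at least 1 FPKM (12896) were tested on log2(FPKM + 1), a scale that understates the change of low genes, with limma 3.58.1 (R 4.3.3), an empirical Bayes trend, group as the only term, two-sided tests, Benjamini-Hochberg adjustment over all tested genes and a threshold of 0.05. An exact permutation test over 2 against 2 libraries cannot give a p under 0.333, so none is reported. For ratios, the log2(FPKM + 1) of 1 gene was subtracted from every gene before the same fit.

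Depth was estimated from steps in low FPKM values of genes with 1 transcript of over 800 bases, and the recovered fragments served voom weights and counting intervals. For a transcript length of 2000 bases, each fragment added 0.917 to 1.02 FPKM in the libraries labelled CD4creERafl/fl and 0.73 to 0.765 FPKM in controls. Shared sequence was searched with BLAST+ 2.17.0 among GENCODE transcripts (at least 50 bases at 90% identity). Named from the other pathway list and the counterparts were the 4 lowest and 4 highest changes, and Fyn, Prkcq, Plcg1, Grap2 and Sh2d2a beside them were named after their values were seen. The naming rule also took 2 genes that are not reported here. The members, lists and naming rules were chosen with earlier results of these data known. Alternatives changed the pseudocount, filter, scaling, variance model, libraries and pairing.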

Additional observations from a re-analysis of the deposited data

How the results depend on the processing

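The 9 genes kept their direction under every alternative except the scaling to other T-restricted genes, with Cd3d between -1.17 and -0.38 and Lat between -3.46 and -2.92. Scaled to other T-restricted genes, log2 fold changes were 1.80 for Cd3d, 0.028 for Cd3e, 1.23 for Cd247, 1.17 for Cd4 and 2.18 for Lcp2, the medians were 0.028 for the 9 genes and 1.49 for the other proximal genes, and calls were 11164 over all genes (11147 higher), 4 of the 9 genes, 15 of the other proximal genes and 10 counterparts, all higher. That scaling subtracts from each library its own mean log2(FPKM + 1) of the 12 other T-restricted genes, whatever the reason for their level. With voom weights, 197 of 6282 tested genes were called (2.32% higher, 0.812% lower). Of the 9 genes only 6 were in that fit, and 4 of these 6 were called lower (Cd3e -2.57, Cd3g -2.82, Cd4 -1.42 and Lat -3.27). Lck, Zap70 and Cd247 were not in it. Of the other proximal genes 9 were tested and 3 called lower, and of the counterparts 4 were tested and 2 called higher.

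Over all genes, limma called 7 genes in the reported fit, 4 with a pseudocount of 5 and 4 with a mean of at least 5 FPKM. It called 0 with a pseudocount of 0.1 (1813 at an unadjusted p under 0.05), without a filter (2266), without the trend (1996) and with the replicate number as a block (1888), and 0 with any library left out (1234 to 2042). For the 9 genes the count was 0 in each of these fits. The cause was not tested. Over the tested genes, equal library numbers did not deviate together (correlation of deviations -0.0016). The labels do not say whether equal numbers mark a pair, and a single correlation cannot settle that. With the block, Cd3e and Zap70 relative to Cd3d became called (limma adjusted p = 0.0228 and 0.00691), Zap70 also without a filter (0.0499) and with a mean of at least 5 FPKM (0.0496).

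Zap70 changed sign relative to Cd3e without the first library labelled CD4creERafl/fl (range over libraries left out -0.67 to 0.018), and relative to Cd3g with a pseudocount of 5 (0.35), without control 1 (0.11) and without the first library labelled CD4creERafl/fl (range over libraries left out -0.37 to 0.30). Cd4 relative to Cd3e and to Cd3g remained called, and relative to Cd3d not called, under all alternatives run. At this depth, each fragment adds 0.73 to 1.02 FPKM at a transcript length of 2000 bases, which limits Zap70, Cd3e and Lat in the libraries labelled CD4creERafl/fl.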
